A study of Mus musculus with 18 samples.

Results

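Wild-type (wt) *Tsix*-stop mouse ES cells were compared before differentiation (D0) and as embryoid bodies (EBs, D15), to describe which genes were gained and lost, which cell lineages were represented and how the balance between the 2 parental alleles changed. The members are the 4 RNA-seq libraries that the labels give as *Tsix*-stop wt, 2 at D0 and 2 at D15, of 18 libraries in the series. *Tsix*-stop is a female ES line from a cross of strain-129 and *cast* mice that carries a transcriptional stop in *Tsix* on the strain-129 X chromosome, so that the strain-129 X becomes the inactive X (Xi) and the *cast* X the active X (Xa). It is a single line, so these libraries describe cultures of that line only. D0 cells were grown with LIF and serum on mouse embryonic fibroblast feeders, which were reduced by plating on gelatin, and D15 cells had spent 7 days in suspension without LIF and then 8 days attached to gelatin. No wt library carries a *Kdm6a* edit. The study's *Kdm6a* KO libraries (2 on each day, from 2 clones per the methods) share the fit of the spread, and its CRISPR control (1 library on each day) is given for comparison only. Per the methods the wt replicates were biological. With 2 libraries against 2 an exact permutation test cannot give a 2-sided p below 0.33, so single genes were tested with the model fitted across all genes.

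ES cells in serum and LIF hold a network of transcription factors around *Pou5f1*, *Sox2* and *Nanog*, and lose it when LIF is withdrawn. In EBs the cells then form an outer layer of extraembryonic endoderm and, inside, epiblast-like cells that give rise to mesoderm, endoderm and ectoderm. In female cells this exit is coupled to X inactivation, in which *Xist* RNA coats the future Xi and its genes are silenced.

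The wt libraries held 53026175 to 68796172 counts, of which 9605107 to 12095544 were reads that a SNP assigned to strain-129 or *cast*. Replicates of a day correlated at 0.986 (D0, 12977 genes) and 0.992 (D15, 14065 genes) on log2 counts, over genes above a minimum count. Levels are given as TPM (a level per exon length, scaled to the library), computed here from the deposited counts, and differences as log2 fold changes of D15 over D0 from edgeR. Genes are called here if their FDR was 0.1 or less and their change 2-fold or more. The 13121 genes tested were those that reached 2.5 CPM in 2 or more of the libraries fitted.

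Of the genes tested, 4965 (37.8%) were called between D15 and D0, 3178 (24.2%) higher and 1787 (13.6%) lower. The gains were larger than the losses. Among called genes, 989 were at least 10-fold higher and 97 at least 10-fold lower, and 186 were at least 100-fold higher against 1 lower. Genes called higher made up 3.39% and 3.32% of all TPM at D0 and 18.6% and 18.1% at D15, while genes called lower went from 23.6% and 23.8% to 10.1% and 9.82%. There were 293 genes under 0.5 TPM in both D0 libraries and at 5 TPM or more in both D15 libraries, and 10 genes with the opposite pattern.

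**Figure D1:**
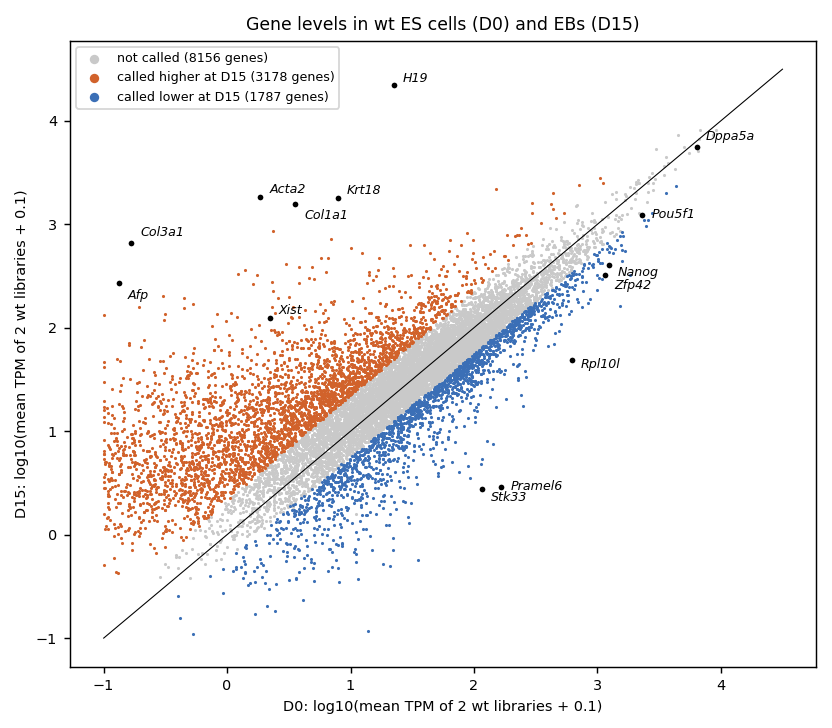
Mean level of each tested gene at D0 (x axis) and D15 (y axis), as log10 of the mean TPM of 2 wt libraries plus 0.1, with genes called higher at D15 in orange, lower in blue and not called in grey. The 3178 genes called higher reach farther from the diagonal than the 1787 called lower, and *Pou5f1* and *Dppa5a* lie close to it.

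Most genes of naive pluripotency fell but stayed abundant. *Nanog* was at 1193 and 1291 TPM at D0 and at 421 and 390 TPM at D15 (log2 fold change −1.78, SE 0.16, FDR 2.3e-05 by edgeR). *Pou5f1*, which encodes OCT4 and lies on chromosome 17 (35506018 to 35510772, GRCm38), was at 2283 and 2332 TPM at D0 and still at 1116 and 1358 TPM at D15 (−1.06, SE 0.15), and was not called without D15 replicate 1 (−0.87). *Zfp42* (REX1), a marker of the naive state, went from 1258 and 1051 TPM to 322 and 332 TPM (−1.99, SE 0.18). Both libraries of each day lay on the same side for these genes, and none of them came near 0. With 2 libraries against 2, the separation of the days alone is weak evidence. In bulk RNA, fewer cells of a type and less RNA in each cell cannot be told apart.

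Of 17 naive pluripotency genes, all tested, 14 were called lower and none higher, with a median log2 fold change of −1.46 beside 0.02 over all genes tested. The largest falls at 5 TPM or more were those of *Tdh* (−2.30), the threonine dehydrogenase of mouse ES cells, *Nr0b1* (−2.13) and *Nr5a2* (−2.04). *Esrrb*, an orphan nuclear receptor, also fell, at 565 and 719 TPM before and 227 and 246 TPM after. The 3 members not called were *Dppa5a* and, named after their values were seen, *Klf4* and *Tcl1*. *Dppa5a*, which encodes an RNA-binding protein of pluripotent cells, was at 6836 and 6008 TPM at D0 and 5414 and 5813 TPM at D15, the seventh most abundant gene of the EBs.

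Of 15 genes of core pluripotency, 6 were called lower and 2 higher. *Sox2* did not pass the fold threshold, at 797 and 864 TPM before and 489 and 508 TPM after (−0.90, SE 0.11, FDR 0.00011 by edgeR). *L1td1* (−2.26) and *Dppa2* (−2.17) had the largest falls. *Dnmt3l*, the cofactor of the de novo DNA methyltransferases, rose from 45.7 and 57.6 TPM to 314 and 328 TPM (2.47, SE 0.32). *Lin28a*, named after its values were seen, encodes a repressor of let-7 maturation and was the other member called higher (1.06), but not without D0 replicate 1 (0.63).

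In the formative list, which holds genes that rise when ES cells leave the naive state, 6 of 11 members were called higher and 1 lower. *Fgf5*, the classical epiblast marker, rose from 0.202 and 0.312 TPM to 18.1 and 17 TPM (5.93, SE 0.40, FDR 6.6e-06 by edgeR). *Otx2* went from 64.7 and 44.9 TPM to 154 and 141 TPM, with a wide error (1.25, SE 0.55, FDR 0.069), and that call was lost without any of the 4 libraries (FDR 0.112 to 0.280 by edgeR). *Zic2* was called lower (−1.06), but not without D15 replicate 1 (−0.92). Of 19 primitive streak genes, 14 were tested, 7 were called higher and 2 lower, and without D15 replicate 2 4 were higher, fewer genes then reaching the filter. Without any 1 of the 4 libraries 1 was lower. *Cer1*, a secreted antagonist of Nodal, BMP and Wnt made in the anterior visceral endoderm, rose from 0.639 and 0.621 TPM to 22.5 and 18.7 TPM (4.85, SE 0.60). *Lhx1*, a homeobox gene of the node and early mesendoderm, had no count at D0 and 864 and 671 counts at D15, at least 264-fold higher when 3 counts per library are taken as the floor. *Lefty2*, a Nodal antagonist that ES cells express, fell from 793 and 896 TPM to 172 and 174 TPM (−2.45, SE 0.21), while *Nodal* itself was at 167 and 197 TPM before and 115 and 120 TPM after and did not pass the fold threshold.

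**Figure D2:**
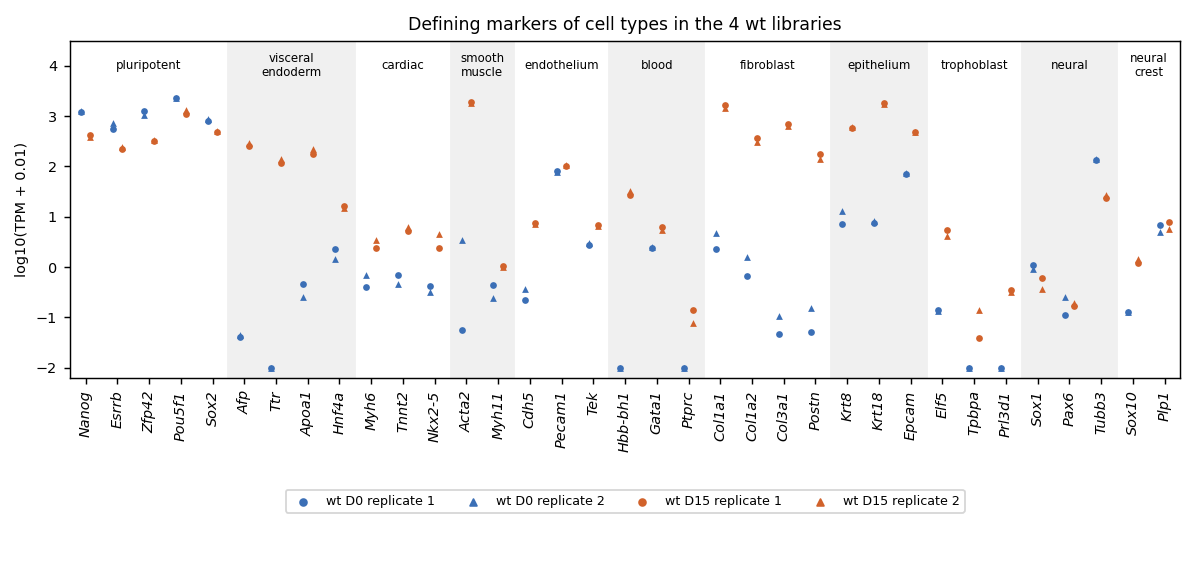
Levels of the defining markers of 11 cell types in each wt library, as log10(TPM + 0.01), with D0 in blue, D15 in orange, replicate 1 as circles and replicate 2 as triangles. Markers of visceral endoderm, smooth muscle, fibroblasts and epithelium lay far above their D0 levels at D15, pluripotent markers lay slightly below, and *Sox1* and *Pax6* stayed near or under 1 TPM on both days.

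Visceral endoderm, the absorptive and secretory epithelium on the surface of the early embryo and of EBs, gave some of the largest gains. Of the 36 genes of its list, 29 were tested, 27 were called higher and 1 lower, with a median log2 fold change of 4.10. *Afp*, alpha-fetoprotein, had 2 counts in each D0 library and stood at 252 and 290 TPM at D15, a ratio of 7406 with a counting interval from 2892 to 27180. *Ttr*, transthyretin, had no count at D0 and 120 and 143 TPM at D15, at least 842-fold higher against the floor of 3 counts. *Apoa1*, the main protein of HDL, rose from 0.449 and 0.243 TPM to 174 and 218 TPM (8.92, SE 0.39). *Hnf4a*, the nuclear receptor that directs such genes, rose from 2.30 and 1.43 TPM to 16.3 and 14.7 TPM (2.87). No D0 library overlapped a D15 library in these genes. With 2 libraries against 2 this separation alone is weak evidence, and the share of all genes tested that show it is not given here.

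The endoderm regulators upstream of this programme rose with it. *Gata6* went from 0.225 and 0.083 TPM to 20.3 and 17.8 TPM (6.73, SE 0.43, FDR 5.3e-06 by edgeR) and *Gata4* from 1.76 and 2.11 TPM to 64.4 and 62.2 TPM (4.87, SE 0.20). *Rbp4*, the plasma carrier of retinol, rose from 3.12 and 1.34 TPM to 269 and 286 TPM (6.76, SE 0.48). *Apoe* was the most abundant member, at 1083 and 1124 TPM before and 2197 and 2795 TPM after (1.01, SE 0.22), at the edge of the 2-fold threshold and not called without D15 replicate 2 (0.80) or without either D0 library (1.00). *Apom*, an apolipoprotein, was the member called lower (−1.41), but not without D0 replicate 1 (−0.93). *Fgb*, the beta chain of fibrinogen, had 1 count in all at D0 and 1000 and 983 at D15, a ratio of 2071 with a counting interval from 371.6 to 81790. *Vtn*, vitronectin, was at least 148-fold higher and *Spp2*, a secreted phosphoprotein, at least 86.0-fold higher, both from no count at D0. *Gata4*, *Gata6* and *Apom* were named after their values were seen.

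The list of parietal endoderm, the layer that lays down Reichert's membrane, rose in part. Of its 15 members, 9 were called higher, none lower and 6 were not called, with a median log2 fold change of 1.53. In the collagen list 26 of 30 tested genes were called higher too, and bulk RNA does not tell which cells made these RNAs. *Col4a1* rose from 43.4 and 45.4 TPM to 568 and 497 TPM (3.42, SE 0.22, FDR 5.1e-06 by edgeR) and *Sparc* from 428 and 442 TPM to 1505 and 1328 TPM (1.53, SE 0.22). *Pth1r*, the receptor for parathyroid hormone-related protein that marks this layer, rose from 0.086 and 0.185 TPM to 21.7 TPM in both libraries (7.17, SE 0.50). In the list of gut and definitive endoderm 13 of 20 genes were tested and 11 were called higher, 4 without D15 replicate 1 and 3 without D15 replicate 2, since fewer then reached the filter. *Cldn6*, a tight junction protein of embryonic epithelium, rose from 5.78 and 7.15 TPM to 456 and 480 TPM (6.02, SE 0.22), and the pioneer factor *Foxa1* from 0.334 and 0.234 TPM to 24.5 and 22.9 TPM (6.19, SE 0.31).

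The promoters of a gene of each kind, gained endoderm, gained muscle and lost pluripotency, are shown as 250 bases before and 50 bases after the annotated start (RefSeq, GRCm38.p6), 5′ to 3′ on the gene's strand. Capitals mark TATAAA in *Afp* (chr5:90490464-90490763, plus strand), TATAAA and a CArG box, the recognition sequence of SRF, in *Actc1* (chr2:114052826-114053125, minus strand), and the octamer ATTTGCAT, the recognition sequence of OCT factors, in *Zfp42* (chr8:43306960-43307259, minus strand).
Afp: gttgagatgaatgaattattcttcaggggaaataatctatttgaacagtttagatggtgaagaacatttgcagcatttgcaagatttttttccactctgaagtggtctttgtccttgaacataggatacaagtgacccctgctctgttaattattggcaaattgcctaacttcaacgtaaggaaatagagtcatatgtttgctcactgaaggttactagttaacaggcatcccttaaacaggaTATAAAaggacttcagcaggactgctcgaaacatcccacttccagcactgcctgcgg
Actc1: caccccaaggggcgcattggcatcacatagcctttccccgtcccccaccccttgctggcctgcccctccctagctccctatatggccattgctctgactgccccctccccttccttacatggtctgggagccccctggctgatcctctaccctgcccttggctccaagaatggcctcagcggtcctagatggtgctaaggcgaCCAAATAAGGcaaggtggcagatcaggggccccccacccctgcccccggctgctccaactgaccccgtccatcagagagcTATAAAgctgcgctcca
Zfp42: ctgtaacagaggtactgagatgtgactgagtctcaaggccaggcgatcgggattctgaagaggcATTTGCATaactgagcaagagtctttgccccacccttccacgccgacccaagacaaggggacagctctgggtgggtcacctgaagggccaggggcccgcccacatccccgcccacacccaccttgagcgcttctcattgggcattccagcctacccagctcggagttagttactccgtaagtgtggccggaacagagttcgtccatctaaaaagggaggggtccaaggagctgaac

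Each motif was searched on both strands in 32851 promoters of 27025 genes. TATAAA stood in 13.6% of all promoters, 6.96% of those of genes tested, 8.58% of those of genes called higher and 8.24% of those called lower. In the 259 promoters of 201 genes that went from under 0.5 TPM to 5 TPM or more it stood in 13.9%. ATTTGCAT stood in 1.74% of all promoters, 1.34% of those of genes tested, 1.48% of those of genes called higher, 1.59% of those called lower and 1.93% (5 promoters) of those that went from under 0.5 TPM to 5 TPM or more. For the CArG box the same shares were 1.63%, 1.31%, 1.61%, 0.915% and 2.70% (7 promoters). The median promoter held 20 CG dinucleotides among genes tested, 17 among those called higher, 18 among those called lower and 12 among the genes that went from under 0.5 to 5 TPM or more. The *Afp* promoter held 3 CG, that of *Actc1* 7 and that of *Zfp42* 11. The TATAAA of *Afp* began at base −7 from the start and that of *Actc1* at base 34, the CArG box at base −47 and the octamer of *Zfp42* at base −186. These are matches of letters and do not show that a factor was bound.

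Mesoderm was gained broadly. Of 26 regulators of mesoderm and mesenchyme, 20 were tested, 18 were called higher and 2 lower, with a median log2 fold change of 4.07. Without either D15 library 11 were called higher, fewer genes then reaching the filter. *Hand1*, a bHLH factor of extraembryonic and lateral mesoderm, rose from 0.430 and 0.421 TPM to 180 and 159 TPM (8.46, SE 0.65, FDR 1.2e-05 by edgeR). *Hand2* rose from 0.859 and 0.510 TPM to 59.3 and 62.4 TPM (6.28, SE 0.42), and *Twist1*, a bHLH factor of mesenchyme, from 5.61 and 3.76 TPM to 46.9 and 43.8 TPM (3.09, SE 0.28). *Osr1*, a zinc finger factor of intermediate and lateral mesoderm, had no count at D0 and was at least 71.2-fold higher at D15. *Osr2*, its paralogue, was among the genes that fell most, from 21.8 and 22.3 TPM to 0.606 and 0.619 TPM (−5.34, SE 0.27). The other member called lower was *Tcf15* (−1.18), named after its values were seen, and not called with the CRISPR control counted as wt (−0.97).

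Smooth muscle genes were gained to a summed level of 3239 and 3109 TPM at D15, and the cardiac list went from 83.4 and 71.8 TPM to 345 and 392 TPM. All 11 tested of 13 smooth muscle genes were called higher, and *Myh11*, the late marker, was not tested, at 1.05 and 0.974 TPM at D15. *Acta2*, smooth muscle actin, reached 1876 and 1819 TPM from 0.046 and 3.47 TPM (9.95, SE 0.96, FDR 3.3e-05 by edgeR). *Tagln*, transgelin, reached 896 and 841 TPM from 0.914 and 3.62 TPM (8.46, SE 0.63). The D0 libraries differed from each other in these genes, with replicate 2 the higher, but lay far below both D15 libraries. Of 25 cardiac genes 17 were tested, 12 were called higher and 1 lower, and 6 were higher without D15 replicate 2. *Ankrd1*, an ankyrin repeat protein of heart muscle, rose from 0.035 and 0.083 TPM to 74.5 and 68.0 TPM (10.05, SE 0.70). *Actc1*, cardiac actin, had no count at D0 and 37.6 and 45.6 TPM at D15, at least 363-fold higher. The member called lower was *Ttn*, titin, named after its values were seen, at 4.03 and 4.003 TPM before and 0.133 and 0.132 TPM after (−5.09, SE 0.36). *Tnnt2*, cardiac troponin T, reached 5.25 and 6.18 TPM (3.15), *Myh6* 2.42 and 3.45 TPM (2.29), and *Nkx2-5* was not tested, at 2.38 and 4.46 TPM.

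Endothelial and blood genes were gained at low levels. Of 20 endothelial genes 18 were tested, 10 were called higher and 1 lower, and 6 were higher without D15 replicate 2. *Flt1*, a VEGF receptor, rose from 0.041 and 0.124 TPM to 21.2 and 18.0 TPM (7.76, SE 0.58, FDR 9.7e-06 by edgeR) and *Cdh5*, VE-cadherin, from 0.216 and 0.357 TPM to 7.47 and 7.24 TPM (4.52, SE 0.85). *Pecam1* was already at 82.2 and 76.9 TPM in the ES cells and at 101 and 105 TPM in the EBs, and was not called (0.21, FDR 0.33 by edgeR). *Etv2*, the transcription factor of early haemangioblasts, fell from 14 and 11.6 TPM to 2.38 and 2.85 TPM (−2.46, SE 0.32).

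Of 21 blood genes 12 were tested, 9 were called higher and 1 lower, and 5 were higher without D15 replicate 2. The embryonic globins *Hbb-bh1* and *Hba-x* had no count at D0 and were at least 98.8-fold and at least 85.7-fold higher at D15, at 26.7 and 33.0 TPM and at 15.7 and 18.2 TPM. *Csf1r*, the receptor of macrophages, rose from 0.009 and 0.083 TPM to 16.2 and 14.3 TPM (8.26, SE 0.73, FDR 2.2e-05 by edgeR). *Ptprc* (CD45) was not tested, with 39 and 18 counts at D15 and none at D0.

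Genes of fibroblasts and extracellular matrix were gained. All 27 members of the list were tested, 25 were called higher and none lower, and the remaining 2, among them *Fn1*, were not called. *Col3a1* (chromosome 1, 45311538 to 45349706) rose from 0.036 and 0.098 TPM to 684 and 638 TPM (13.14, SE 0.55, FDR 1.5e-06 by edgeR). *Col1a1* rose from 2.28 and 4.66 TPM to 1655 and 1459 TPM (8.66, SE 0.34). *Postn*, periostin, rose from 0.041 and 0.145 TPM to 175 and 144 TPM (10.62, SE 0.34), and *Mgp*, matrix Gla protein, was at least 301-fold higher from no count. *Fn1* was at 355 and 476 TPM before and 973 and 869 TPM after (0.99, SE 0.14), just under 2-fold, and was called without D0 replicate 2 (1.16) or without D15 replicate 2 (1.04). These genes also mark the feeder cells of the D0 culture, and at D0 the whole list summed to 688 and 834 TPM, of which *Fn1* was the 355 and 476 TPM given above. The 4 defining markers were each under 5 TPM at D0, with *Col1a1* the highest of them in both libraries. Their part in the D0 values was not tested.

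Of 32 collagen chains 30 were tested and 26 were called higher, with a median log2 fold change of 5.87. The summed level of the chains was 311 and 367 TPM at D0 and 5225 and 4720 TPM at D15. *Col6a2*, a chain of microfibrils, rose from 0.012 and 0.043 TPM to 51.1 and 49.2 TPM (10.68, SE 0.35, FDR 8.1e-07 by edgeR), and *Col1a2* from 0.646 and 1.60 TPM to 363 and 306 TPM (8.07, SE 0.84).

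Epithelial genes rose, with keratins of simple epithelium first. Of 19 genes 16 were tested, 12 were called higher and none lower. *Krt18* rose from 7.38 and 8.27 TPM to 1841 and 1776 TPM (7.69, SE 0.53, FDR 7.5e-06 by edgeR), its partner *Krt8* from 7.32 and 12.8 TPM to 572 and 597 TPM (5.71, SE 0.62), and *Krt19* from 7.46 and 3.95 TPM to 457 and 497 TPM (6.20, SE 0.62). Such keratins are made by visceral endoderm, trophoblast and surface ectoderm alike. Of 17 trophoblast genes 13 were tested and 10 were called higher, among them *Elf5*, from 0.129 and 0.123 TPM to 5.49 and 4.11 TPM (5.07), and *Eomes*, from 3.52 and 3.51 TPM to 29.1 and 27.6 TPM (2.84). The defining markers *Tpbpa* and *Prl3d1*, of differentiated trophoblast, were at or near 0, with 1 and 4 counts and 5 and 4 counts at D15. Other genes of differentiated trophoblast are not covered by them.

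Few neural and neural crest genes reached the filter. Of 28 neural genes 12 were tested, 2 were called higher and 4 lower, and with no filter on low counts 9 were higher. The defining markers *Sox1* (0.605 and 0.351 TPM) and *Pax6* (0.162 and 0.186 TPM) were under 1 TPM at D15. *Tubb3*, the neuronal beta-tubulin, fell from 135 and 143 TPM to 24.1 and 27.3 TPM (−2.60, SE 0.23, FDR 2.2e-05 by edgeR) and *Stmn2* from 195 and 198 TPM to 80.6 and 81.8 TPM (−1.44, SE 0.13), a call lost with the CRISPR control counted as wt (−0.98). *Elavl3* rose from 2.61 and 3.07 TPM to 13.7 and 14.8 TPM (2.17) and *Crmp1* from 0.982 and 1.65 TPM to 6.78 and 7.12 TPM (2.25). Of 12 neural crest genes 5 were tested, 2 were higher (1 without either D15 library and 7 with no filter) and 2 lower, and *Sox10* was at 1.22 and 1.45 TPM at D15. Of 39 *Hox* genes, which pattern the trunk, 9 were tested, 5 were called higher and 1 lower, and without either D15 library 1 was higher, while with no filter 24 were. None of the 10 genes of 2-cell-like cells reached the filter.

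**Figure D3:**
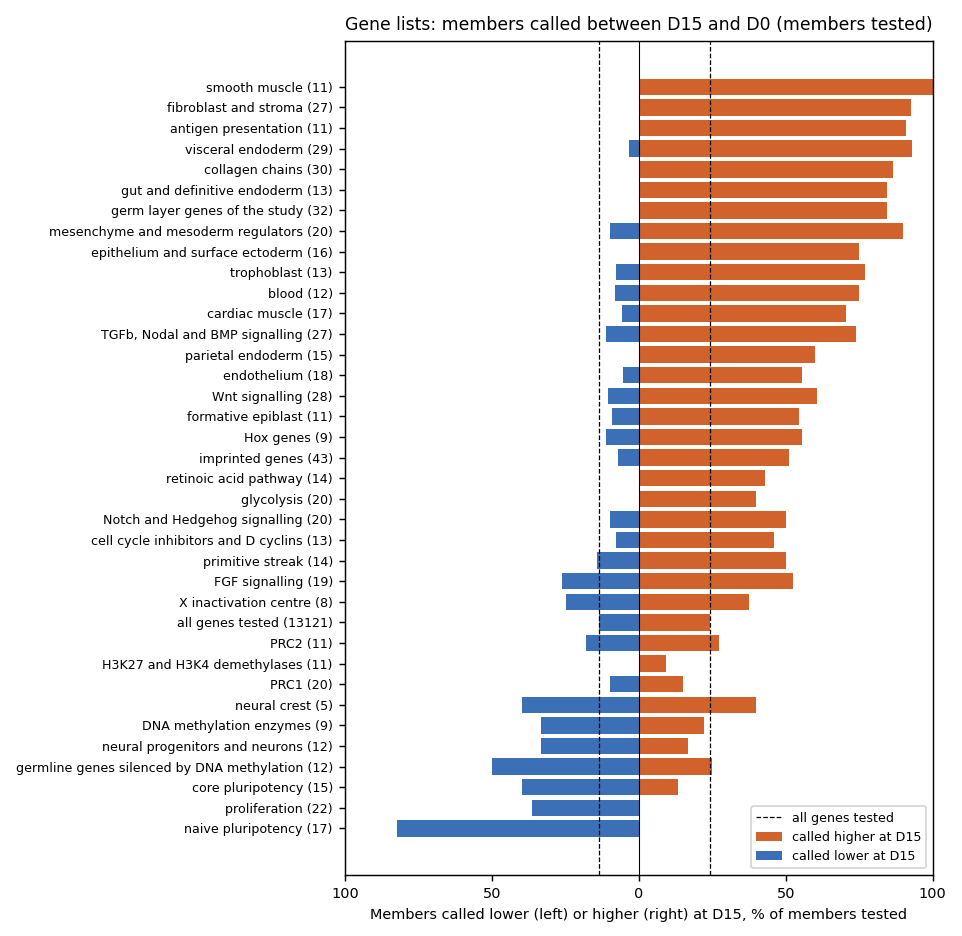
Share of the tested members of each gene list that were called higher (right, orange) or lower (left, blue) at D15, with the number tested in parentheses and the shares over all 13121 genes as dashed lines. Lists of smooth muscle, stroma and endoderm lie far to the right of the 24.2% line and naive pluripotency far to the left of the 13.6% line, and the PRC1 and PRC2 lists near both lines.

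These counts are descriptions of lists, to be read against 24.2% and 13.6% over all genes, and a gene absent on 1 day entered the test only if it was high on the other. For the study's own list of 39 germ layer genes, 27 of 32 tested were called higher and none lower, and 17 were higher without D15 replicate 2. That list was chosen by the study on these samples, so its count is not independent evidence of a direction.

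Ligands, receptors and targets of signalling pathways shifted between members of one family. In TGFb, Nodal and BMP signalling 27 of 28 genes were tested, 20 were called higher and 3 lower. The ligands *Bmp2*, *Tgfb2* and *Tgfb3* rose from under 0.4 TPM, *Bmp2* to 25.1 and 22.4 TPM (7.93, SE 1.01, FDR 0.00015 by edgeR), *Tgfb2* to 32.9 and 26.2 TPM (6.44) and *Tgfb3* to 35.1 and 34.6 TPM (7.62). *Lefty1* fell from 330 and 312 TPM to 71.4 and 81.6 TPM (−2.24, SE 0.13), and the Nodal coreceptor *Tdgf1* was at 493 and 432 TPM before and 479 and 435 TPM after. In Wnt signalling 28 of 34 genes were tested, 17 were called higher and 3 lower (1 without D15 replicate 1). *Wnt4*, a ligand, rose from 0.144 and 0.057 TPM to 8.56 and 10.0 TPM (6.29, SE 0.70) and the receptor *Fzd7* from 26.8 and 29.4 TPM to 132 and 121 TPM (2.01, SE 0.12). *Tcf7l1* (TCF3), the repressor of Wnt targets in ES cells, fell from 117 and 145 TPM to 67.5 and 73.5 TPM (−1.06, SE 0.21), but was not called without D0 replicate 2 (−0.95) or without D15 replicate 1 (−0.94).

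In FGF signalling 10 of 19 tested genes were called higher and 5 lower. *Fgf4*, the autocrine ligand of ES cells, fell from 360 and 378 TPM to 153 and 154 TPM (−1.43, SE 0.15, FDR 5.2e-05 by edgeR), and *Etv5*, an ERK target, from 201 and 220 TPM to 77.9 and 74.5 TPM (−1.63, SE 0.10). The ERK targets *Dusp6* and *Etv4* moved the other way, from 2.11 and 3.01 TPM to 58.7 and 49.2 TPM (4.24, SE 0.31) and from 0.553 and 0.638 TPM to 32.4 and 34.1 TPM (5.64, SE 0.64). In the retinoic acid pathway 6 of 14 tested genes were called higher and none lower, led by *Cyp26a1*, the enzyme that degrades retinoic acid, from 0.229 and 0.182 TPM to 37.8 and 35.7 TPM (7.28, SE 0.79). The retinoic acid receptor *Rarb* rose from 0.134 and 0.296 TPM to 9.73 and 9.43 TPM (5.33, SE 0.36). In Notch and Hedgehog signalling 10 of 20 tested genes were called higher and 2 lower, among them the receptor *Notch3*, from 19.2 and 19 TPM to 89.5 and 91.9 TPM (2.08).

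Several genes of DNA replication fell. Of 22 proliferation genes 8 were called lower and none higher. *Mcm2*, a subunit of the replicative helicase, fell from 324 and 352 TPM to 97.3 and 109 TPM (−1.88, SE 0.13, FDR 6.5e-06 by edgeR), *Pcna* fell by 1.66 (log2) and *Ccne1*, cyclin E1, by 1.86. *Mki67* was at 107 and 135 TPM before and 148 and 126 TPM after, and *Top2a* at 299.8 and 399 TPM before and 549 and 461 TPM after. Among inhibitors and D cyclins 6 of 13 were called higher. *Ccnd2*, cyclin D2, rose from 0.445 and 0.644 TPM to 52.6 and 45.4 TPM (6.33, SE 0.45), and the CDK inhibitor *Cdkn1c* from 2.01 and 2.24 TPM to 39.5 and 35.2 TPM (3.97, SE 0.52). *Mki67* and *Top2a* were named after their values were seen.

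Antigen presentation genes, which ES cells express at low levels, were gained. Of 12 genes 11 were tested, 10 were called higher and none lower. *B2m*, the light chain of MHC class I, rose from 44.3 and 37.4 TPM to 366 and 346 TPM (2.95, SE 0.39, FDR 0.00019 by edgeR) and the peptide transporter *Tap1* from 1.47 and 0.942 TPM to 23.1 and 25.8 TPM (4.16, SE 0.30). Class I genes are close paralogues, so reads may be divided among them. In glycolysis 8 of 20 tested genes were called higher and none lower. *Eno2* rose from 9.38 and 4.99 TPM to 187 and 179 TPM (4.49, SE 0.35), whereas the abundant *Aldoa* was at 3423 and 2579 TPM before and 4968 and 5702 TPM after (0.66).

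Among chromatin regulators the shares called varied by list. Over all genes tested 24.2% were called higher and 13.6% lower. The shares were 27.3% and 18.2% for PRC2 and 15% and 10% for PRC1. For DNA methylation enzymes they were 22.2% and 33.3%, and for histone demethylases 9.09% and 0%. Of 12 PRC2 genes 11 were tested, 3 were called higher and 2 lower. *Ezh1* rose from 11.4 and 13 TPM to 59.5 and 58.1 TPM (2.11, SE 0.13, FDR 4.6e-06 by edgeR), while *Ezh2*, the main methyltransferase of ES cells and named after its values were seen, was at 106 and 98.0 TPM before and 65.9 and 59.6 TPM after (−0.87). Of 20 PRC1 genes 3 were called higher and 2 lower, with the *Pcgf6* subunit at 77.5 and 86.4 TPM before and 34.7 and 31.1 TPM after (−1.48) and *Pcgf5* at 2.78 and 2.55 TPM before and 25.4 and 21.5 TPM after (2.97). Of 9 tested DNA methylation genes 2 were called higher and 3 lower, and *Uhrf1*, which brings DNMT1 to replicated DNA, fell from 625 and 758 TPM to 176 and 177 TPM (−2.13, SE 0.11). Among 11 histone demethylases only *Kdm4b* was called, higher by 1.06, and that call was lost with the CRISPR control counted as wt (0.98) or with no filter on low counts (0.97). *Kdm6a* (X chromosome, 18162575 to 18279936) was at 54.1 and 85.6 TPM at D0 and 64.3 and 48.9 TPM at D15 (−0.47, SE 0.56, FDR 0.48), and its 2 libraries of a day overlapped those of the other.

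The 12 largest falls at 10 TPM or more were those of *Osr2*, described above, and of the genes that follow. *Pramel6*, a PRAME family gene of naive cells, fell from 194 and 139 TPM to 2.60 and 3.0 TPM (−6.07, SE 0.29, FDR 2.4e-06 by edgeR). *Stk33*, a serine/threonine kinase, fell from 129.4 and 102 TPM to 3.12 and 2.23 TPM (−5.60, SE 0.34), and *Eif4e1b*, an oocyte relative of the cap-binding protein, from 10.3 and 12.5 TPM to 0.189 and 0.361 TPM (−5.53, SE 0.60). *Trpm1* (−5.89), a cation channel, *Prrt3* (−5.59), *Mboat4* (−4.79), the ghrelin acyltransferase, and *Crygd* (−4.93), a lens crystallin, also fell, as did *Gm694* (−6.39), *4930591A17Rik* (−4.88) and *Gm13251* (−4.79). *Pramel6* has close paralogues and *Amd1*, which encodes an enzyme of polyamine synthesis, at 9.98 and 17.7 TPM before and 1 count in each library after, has near-identical copies, so that these counts are uncertain, and *Amd1* was not called without D15 replicate 1 (FDR 0.105 by edgeR). Of 15 germline genes that DNA methylation silences, 12 were tested, 6 were called lower and 3 higher. *Rpl10l*, a retrotransposed ribosomal protein gene of the testis, fell from 721 and 523 TPM to 44.0 and 52.4 TPM (−3.86, SE 0.23), and *Stk31* from 55.9 and 40.7 TPM to 5.37 and 4.07 TPM (−3.53).

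The most abundant gene of the EBs was *H19* (chromosome 7, 142575529 to 142578143), the long noncoding RNA of the *Igf2* domain, at 22966 and 21324 TPM against 23.4 and 21.3 TPM in ES cells (9.78, SE 0.41, FDR 1.5e-06 by edgeR). *Igf2*, the fetal growth factor beside it, rose from 5.95 and 7.83 TPM to 796 and 657 TPM (6.56, SE 0.23). *Peg10* rose from 112 and 192 TPM to 2492 and 1914 TPM (3.70, SE 0.35). The other most abundant genes of D15 were ribosomal proteins, elongation factors, *Hsp90ab1*, *Aldoa*, *Dppa5a* and *Mir703*. *Mir703* overlaps other transcribed sequence, so its count is not that of a miRNA. Of 47 imprinted genes 43 were tested, 22 were called higher and 3 lower (none without D15 replicate 2), and their summed level went from 2088 and 2282 TPM to 31008 and 28134 TPM, of which *H19* held most at D15.

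The CRISPR control line had 1 library on each day, so its changes carry no test. At 2-fold and with 0.5 CPM added, 21.3% of the genes tested were higher and 12.4% lower in it at D15. Of the 29 tested visceral endoderm genes 20 were at least 2-fold higher in the control, with a median log2 change of 1.44, where the same measure gave 3.54 in wt. In the cardiac list the median was 0.14 in the control and 2.75 in wt, and in the fibroblast list 2.02 and 4.93. For the regulators of mesoderm and mesenchyme it was 0.98 and 3.04. The 9 tested *Hox* genes differed in direction, with medians of −1.45 in the control and 1.60 in wt. In the control 5 of them were at least 2-fold lower and 0 at least 2-fold higher. Naive pluripotency (−1.90 and −1.45), epithelium (3.29 and 2.57) and antigen presentation (3.45 and 2.71) were closer. The labels give these 2 libraries as the control, whereas the names of their deposited tables carry the KO genotype, so their values rest on the labels. Between wt and the KO libraries, which come from 2 clones, the change from D0 to D15 itself was tested as an interaction, which was called lower in KO for 10.5% of the genes tested and higher for 6.62%. It was lower in KO for 16 of the 29 visceral endoderm genes, 13 of the 20 mesoderm regulators and 19 of the 30 collagen chains.

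The Xi was then examined. *Xist* (X chromosome, 103460366 to 103483254) was at 2.57 and 1.66 TPM at D0 and 167 and 83.5 TPM at D15 (5.70, SE 0.53, FDR 2.6e-05 by edgeR). The 2 D15 libraries differed by about 2-fold, with replicate 1 the higher, and both lay far above D0. *Tsix*, its antisense partner, was at 32.3 and 30.8 TPM before and 19.7 and 26.2 TPM after (−0.62, SE 0.24), and did not pass the fold threshold. The 2 genes overlap on opposite strands and the sources used here do not state whether counting used the strand, so reads of one may be counted for the other. At D0 *Xist* had 96 reads of the strain-129 allele and 91 of *cast* in replicate 1 and 60 and 36 in replicate 2, a strain-129 share of 51.3% (95% Wilson interval 44.2 to 58.4%) and 62.5% (52.5 to 71.5%). At D15 its strain-129 share was 99.6% in both libraries, from 10573 and 5130 reads, as the *Tsix* stop on the strain-129 X fixes by design. Such intervals cover counting error only.

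Among 359 X-linked genes with at least 20 SNP reads in each wt library, the median strain-129 share was 48.8% and 49.4% in the D0 libraries and 31.0% and 32.8% in the D15 libraries. The share was lower at D15 in 317 genes. With a call at an FDR of at most 0.1 and a change of at least 10 percentage points, it was called lower in 218 genes (60.7%) and higher in 8, where 9.07% of 10263 autosomal genes were called lower and 6.74% higher. The median change of a gene was −14.8 points on the X and −0.37 points on autosomes. Counted by allele, strain-129 reads of X-linked genes had a median log2 fold change of −0.90 and *cast* reads of 0.06, against −0.06 and −0.01 on autosomes. At D15 26 and 24 of the 359 genes had a strain-129 share under 10%, 160 and 161 lay between 25% and 40%, and 69 and 71 between 40% and 60%.

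**Figure D4:**
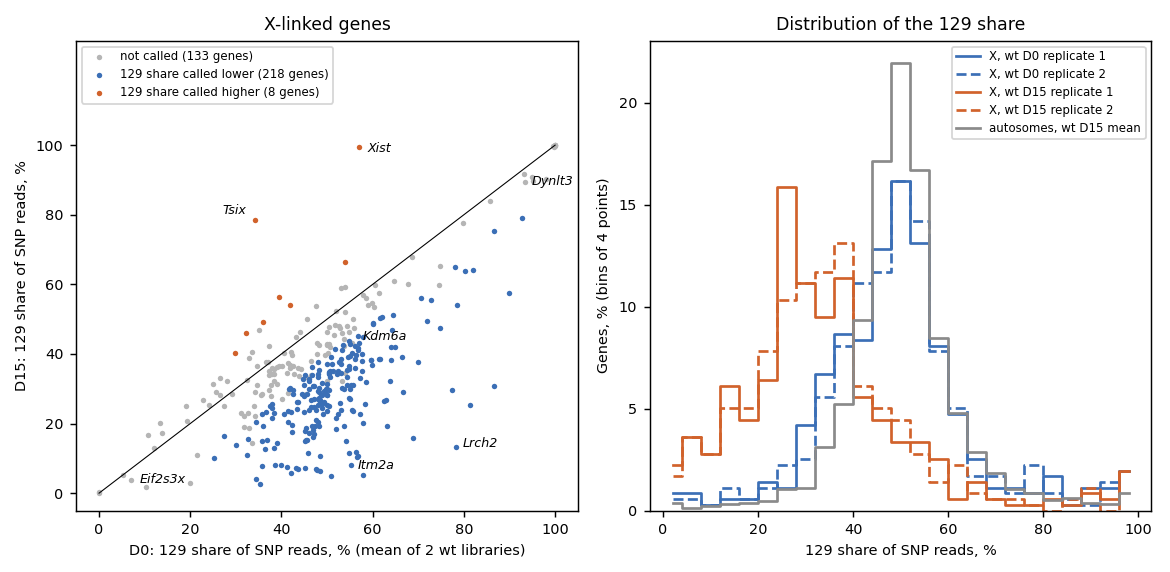
Left, strain-129 share of SNP reads of each X-linked gene at D0 (x axis) and D15 (y axis), means of 2 wt libraries, with genes called lower in blue and higher in orange. Right, distribution of the share over X-linked genes in each wt library and over autosomal genes at D15, with the X-linked genes of the D15 libraries centred near 32% and autosomal genes near 50%.

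The largest falls in share, among X-linked genes with at least 100 SNP reads in each library, were those of *Lrch2*, *Tmem47*, *Itm2a*, *Zdhhc15*, *Gpc4* and *Efnb1*. *Lrch2* went from 79.2% and 77.2% to 13.2% in both D15 libraries (−65.0 points, FDR 1.0e-09 by edgeR). *Itm2a*, a membrane protein of differentiating mesenchyme, went from 50% and 60.4% to 6.88% and 9.22%, while its *cast* reads rose by 4.42 on the log2 scale and its strain-129 reads by 0.56. *Efnb1*, an ephrin ligand, went from 47.2% and 54.3% to 4.77% and 5.20%, with *cast* reads 2.94 higher and strain-129 reads 1.37 lower on that scale. In *Zdhhc15* the *cast* reads hardly moved (0.04) and the strain-129 reads fell by 3.44. The share fell both in genes that were gained from the Xa and in genes whose Xa level stayed.

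Several genes kept a high strain-129 share. *Slc25a5*, *Hnrnph2*, *C330007P06Rik* and *Plp2* were between 99% and 100% on both days, and *Dynlt3* was at 92.8% and 93.7% before and 92.6% and 90.9% after. The reason for a share near 100% on both days was not tested. The 8 genes called higher were *Xist*, *Tsix*, *Klf8*, *Map7d2*, *Morf4l2*, *Pir*, *Prps1* and *Wnk3*, of which *Map7d2*, *Morf4l2*, *Pir* and *Wnk3* were named after their values were seen. Without D15 replicate 2 there were 5. *Tsix* was at 34.6% and 33.7% at D0 and at 88.6% and 68.4% at D15, where it had only 44 and 38 reads. Reads of *Xist* may be counted among those of *Tsix*, as given above, and their part in this rise was not tested. *Kdm6a* was at 57.4% and 55.1% before and 39.6% and 45.2% after (−13.8 points, FDR 0.069), and *Kdm5c*, also known to escape X inactivation, at 40.3% and 42.5% before and 37.1% and 37.7% after.

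The study placed X-linked genes in groups by their reported time of silencing. Of 68 early genes 51 were called lower and none higher, with median shares of 52.0% and 50.5% at D0 and 29.4% and 33.5% at D15. Of 83 intermediate genes with enough reads 59 were called lower and 2 higher, at 29.5% and 33.3% at D15. Of 131 late genes 75 were called lower and 4 higher, at 34.7% and 35.4%. Of 44 genes listed as not silenced 27 were called lower and 1 higher, at 35.8% and 37.7%. The genes called lower were 75%, 71.1%, 57.25% and 61.4% of the groups, in this order. Over all 359 X-linked genes 60.7% were called lower, near the values of the late and not silenced groups. The groups overlap in their members and their ranges overlap widely, and the difference between groups was not tested. In total expression of both alleles, 12 of 68 early and 15 of 86 intermediate genes were called lower. So were 32 of 131 tested late genes and 12 of 44 listed as not silenced. These were 17.6%, 17.4%, 24.4% and 27.3% of the groups, beside 13.6% over all genes tested. Called higher were 5, 10, 8 and 6 (7.35%, 11.6%, 6.11% and 13.6%), beside 24.2% over all genes tested. Of 492 X-linked genes tested, 110 were lower and 102 higher. *Slc7a3*, an amino acid transporter of the late group, fell from 492 and 491 TPM to 91.5 and 93.5 TPM (−2.58, SE 0.17, FDR 5.7e-06 by edgeR), and *Gpc3*, a glypican of the early group, rose from 114 and 83.4 TPM to 748 and 667 TPM (2.67, SE 0.18).

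**Figure D5:**
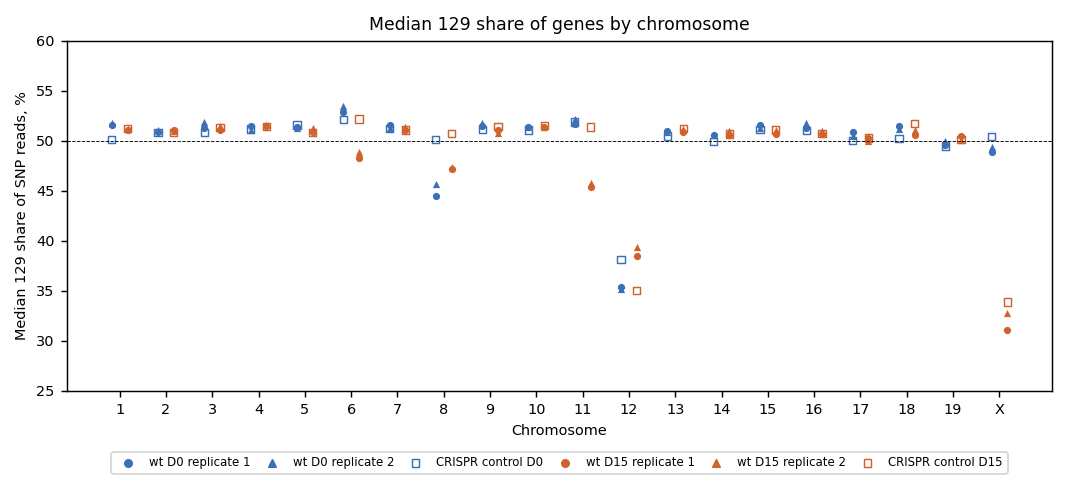
Median strain-129 share of SNP reads of the genes of each chromosome in the wt libraries (filled) and the CRISPR control libraries (open squares), with D0 in blue and D15 in orange. The X moves from about 49% to about 32%, 15 autosomes stay between 49.5% and 51.9% in wt, and chromosomes 6, 8, 11 and 12 of wt stand apart. Chromosome 12 of the CRISPR control stands apart as well.

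On 15 autosomes the median strain-129 share was between 49.5% and 51.9% in every wt library. Chromosomes 6, 8, 11 and 12 stood apart in wt. On chromosome 11 it was 51.6% and 52.2% at D0 and 45.3% and 45.7% at D15, while the CRISPR control was at 51.9% and 51.4%. On chromosome 12 it was 35.3% and 35.1% at D0 and 38.4% and 39.3% at D15 in wt. The CRISPR control stood apart on chromosome 12 as well, at 38.1% at D0 and 35% at D15. On chromosome 6 from 40 to 100 Mb the median share of wt went from 57.9% and 59.96% to 66.5% and 68.1%. Beyond 100 Mb it went from 50.3% and 50.5% to 43.6% and 43.7%. On chromosome 8 beyond 70 Mb it was 42.6% and 44.0% before and 46.1% and 45.9% after, and on the X beyond 150 Mb it was already 37.4% and 39.0% at D0. The cause of these shifts was not tested. Of the 15 other autosomes' 7880 genes 7.61% were called lower and 6.24% higher, and on the X before 150 Mb 205 of 298 genes were called in either direction.

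Single autosomal genes moved by more. Among called genes with at least 100 SNP reads in each library, *Dab2*, an endocytic adaptor of visceral endoderm on chromosome 15, went from 2.10% and 2.20% to 47.1% and 46.5% (44.7 points, FDR 1.3e-10 by edgeR), with total levels of 13.5 and 19.7 TPM before and 76.8 and 57.6 TPM after. *Kif1a* (chromosome 1) went from 8.61% and 13.3% to 47.1% and 51% and *Rgcc* (chromosome 14) from 13.4% and 14% to 47.7% and 55.2%. The other leading rises, *Bst2* and *Asb4*, and, among the leading falls, *Aass*, *Akr1b8*, *Eps8* and *Arl4d*, lay on chromosomes 6, 8 or 11. *Aass* went from 77.8% and 80.0% to 17.8% and 18.1%.

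Imprinted genes, which are expressed from 1 parental allele in most tissues, were read from both alleles here in many cases. Per the paper the strain-129 X of this line is maternal and the *cast* X paternal. *H19*, maternal in the embryo, had strain-129 shares of 49.7% and 46.0% at D0 and 46.1% and 46.4% at D15, from 120115 reads in D15 replicate 1. *Igf2*, paternal in the embryo, was at 57.4% and 72.9% before and 66.1% and 65.6% after, and *Snrpn* at 56.2% and 55.5% before and 59.4% and 57.6% after. *Mcts2* was at 2.40% and 2.02% before and 1.74% and 1.76% after. In the *Dlk1*-*Meg3* domain of chromosome 12, *Dlk1* went from 19.3% and 18.9% to 85.0% and 81.9% (64.4 points, FDR 7.6e-08 by edgeR) and *Meg3* from 8.66% and 10.5% to 26.3% and 26.9% (17 points, FDR 4.2e-09). The median share of chromosome 12 in wt was itself 35.3% and 35.1% at D0 and 38.4% and 39.3% at D15. *Peg3* went from 31.3% and 33.7% to 48.9% and 48.2% (16.1 points). In this paragraph *Snrpn*, *Mcts2*, *Dlk1*, *Meg3* and *Peg3* were named after their values were seen.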

How the data were processed

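RNA-seq libraries (poly(A) selected, TruSeq V2, 75 bp single-end) were mapped by the authors to strain-129 and *cast* versions of mm10. The submitters' processing notes name Bowtie2 2.4.5 and TopHat2 2.1.1. The authors deposited 1 table per library with an estimated count per gene for each genome and the reads that SNPs assigned to strain-129 or *cast*. The column headed 129, in which 7.10% of values were not whole, served as the diploid count after rounding. Whether counting used the strand is not given in the sources used here. No column of comparisons was used, and the E8 libraries were not used here.

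Counts of 4 wt and 4 KO *Tsix*-stop libraries were fitted together in edgeR 4.0.16 (R 4.3.3) with TMM factors (0.934 to 1.07), a term for each genotype and day, the quasi-likelihood test and Benjamini-Hochberg adjustment (FDR). The common biological coefficient of variation was 0.158. DESeq2 1.42.0 served as an alternative. Of 24346 gene symbols, 23318 matched GENCODE and 648 a RefSeq synonym, which gave exon lengths for TPM. The strain-129 share was tested in edgeR as an allele by day term for genes with at least 20 SNP reads in each wt library. On simulated counts of 13121 genes, 90.0% of genes changed by 1.5 (log2) and 98.0% of those changed by 2 were recovered. The changed genes were few, as many up as down, and drawn from genes above a minimum count. On simulated shares of 10667 genes, 55.5% of those moved by 20 points and 95.0% of those moved by 30 were recovered. That simulation assumed a fixed spread and equal shares of both alleles before the change. Intervals of single shares are 95% Wilson intervals.

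The members and gene lists were chosen with earlier results of these data known. Named genes were the 12 largest rises and 12 largest falls at 10 TPM or more, up to 4 largest called changes at 5 TPM or more and the 3 highest levels of each list, *Xist*, *Tsix* and *Kdm6a*, the extreme strain-129 shares at 100 SNP reads or more, the 10 most abundant genes of each day and the defining markers of cell types, and any other is marked where it stands. A gene that the rule selected by its strain-129 share is not reported here. Alternatives were the libraries in the fit, normalization, filter, thresholds, counting column, replicate block, SNP read minimum and leaving out each library.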

Additional observations from a re-analysis of the deposited data

Results flagged for a closer look

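The response to differentiation differed in size between the wt and the *Kdm6a* KO libraries for many genes by the edgeR interaction term, which tests the difference itself over 2 libraries a group. At an FDR of at most 0.1 and 2-fold, 868 of 13121 genes had a change that was higher in KO than in wt (6.62%) and 1379 a lower one (10.5%). The values that follow are the change in KO less the change in wt, on the log2 scale, for the genes named above that passed this test. The KO libraries come from 2 clones, per the methods, of the line that gave the wt libraries, and no cause was tested. *Fgb*, *Vtn*, *Spp2* and *Amd1* also passed (FDR 0.029, 0.034, 0.090 and 0.067 by edgeR) and are given without a value, since with counts at or near 0 on 1 day their fitted difference depends on the prior count.

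Pluripotency and epiblast genes that changed upward relative to wt differed by 1.34 in *Zfp42*, 1.06 in *Tdh*, 1.53 in *Nr0b1*, 1.55 in *L1td1*, 2.17 in *Dppa2*, 2.78 in *Dnmt3l*, 1.40 in *Lin28a*, 1.05 in *Lefty2* and 3.01 in *Lefty1*. In *Klf4* the difference was −1.38. Endoderm genes that changed downward relative to wt differed by −1.76 in *Apom*, −4.88 in *Apoa1*, −2.44 in *Hnf4a*, −3.75 in *Gata6*, −1.99 in *Gata4*, −4.23 in *Rbp4*, −2.87 in *Col4a1*, −1.05 in *Sparc*, −2.43 in *Pth1r* and −4.14 in *Foxa1*. Mesoderm, vessel and matrix genes that changed downward relative to wt differed by −1.28 in *Osr2*, −4.21 in *Hand2*, −2.54 in *Twist1*, −2.47 in *Flt1*, −1.38 in *Fn1*, −1.68 in *Col1a1* and −3.06 in *Col6a2*. Neural genes that changed upward relative to wt differed by 3.67 in *Tubb3*, 1.32 in *Stmn2* and 2.93 in *Crmp1*. Signalling genes that changed downward relative to wt differed by −4.30 in *Bmp2*, −3.60 in *Tgfb2*, −2.88 in *Tgfb3*, −1.34 in *Dusp6*, −2.15 in *Etv4*, −7.23 in *Rarb* and −1.05 in *Notch3*. Genes of the cell cycle, antigen presentation, glycolysis and PRC1 that changed upward relative to wt differed by 1.02 in *Mcm2* and 1.25 in *Pcgf6*. The difference was negative at −3.82 in *Ccnd2*, −1.96 in *B2m*, −1.05 in *Tap1* and −1.17 in *Eno2*. Genes among the largest falls and germline genes that changed upward relative to wt differed by 2.02 in *Trpm1*, 1.67 in *Prrt3*, 3.26 in *Mboat4*, 2.07 in *4930591A17Rik*, 2.64 in *Gm13251*, 1.65 in *Rpl10l* and 2.05 in *Stk31*. X-linked genes that changed upward relative to wt differed by 1.47 in *Slc25a5* and 1.85 in *Slc7a3*. The difference was negative at −2.80 in *Xist*, −2.10 in *Itm2a*, −1.32 in *Gpc4* and −2.23 in *Efnb1*. Imprinted genes that changed downward relative to wt differed by −1.72 in *Igf2*, −3.83 in *Dlk1*, −2.50 in *Meg3* and −1.90 in *Peg3*. Of the other named genes the difference was 1.33 in *Aass* and 2.43 in *Ttn*.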

How the results depend on the processing

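The counts of genes called moved by over 1.5 times under these settings only: with no filter on low counts 4834 genes were higher and 2879 lower, and with no minimum fold change 5064 were higher and 4725 lower. Leaving out each wt library in turn gave 2830 to 3186 higher and 1750 to 1819 lower, and among list members 264 to 326 higher and 116 to 128 lower. DESeq2 gave 3135 and 1844. Of 162 named genes with a fitted change, 15 changed sides of the threshold in at least 1 setting and none reversed. The X-linked genes with a higher strain-129 share numbered 5 to 10 when 1 library was left out (5 without D15 replicate 2). The autosomal genes with a lower share numbered 600 without chromosomes 6, 8, 11 and 12, a setting chosen after seeing the data, fewer genes then being tested. The change of the median X-linked share stayed between −16.3 and −18.2 points.

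The replicate numbers are not stated to pair libraries. With the replicate block 3198 genes were higher and 1791 lower, the interaction gave 856 and 1423, and the shares gave 224 X-linked genes lower. The differences between replicates correlated at −0.255 between the days in wt (9840 genes), and with the crossed pairing, added after seeing the data, 3199 were higher and 1787 lower.

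With 2 libraries a group, the share of changes of 20 points that simulation recovered shows that smaller allelic changes were often not detectable.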

Other observations

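In the CRISPR control, with 1 library a day and no test, the median strain-129 share of X-linked genes before 150 Mb was 50.8% at D0 and 33.9% at D15, and beyond 150 Mb it was 49.96% and 34.2%. In wt the genes beyond 150 Mb were at 37.4% and 39.0% at D0 and at 31.2% and 30.5% at D15, and 21 of 61 were called.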
